A study of Homo sapiens with 18 samples.

Results

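The genes described here belong to the Hippo-YAP pathway, and the 10 symbols were YAP1, WWTR1, TEAD1, CYR61, CTGF, ANKRD1, AMOTL1, AMOTL2, WWC2 and LATS2. They were chosen by a list of symbols drawn up with the CPM and the changes against control of these same libraries known, and all 10 were found among the 57120 symbols of the TruSeq table and the 44267 of the PLATE-seq table. Since the list was not blind to the values, the tests over all genes given below place each gene among all genes and do not stand as independent evidence about the pathway. Enough reads for testing were present for 9 of the 10 in TruSeq, where ANKRD1 was too low, and for 8 of the 10 in PLATE-seq, where CTGF and ANKRD1 were too low.

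The 18 libraries came from MDA-MB-436, an established human breast adenocarcinoma line that lacks hormone receptors, in which SMARCAL1, a DNA translocase acting at stalled replication forks, was either knocked out in clonal lines or depleted with siRNA. TruSeq libraries of total RNA held a control (n = 3) and SMARCAL1 knockout clone 1 (n = 3). PLATE-seq libraries, made from polyadenylated RNA in a pooled plate format, held 6 groups (n = 2 each): a control with its knockout clones 1, 2 and 3, and SMARCAL1 siRNA with a control siRNA. The titles name MDA-MB-436 for every library, whereas the cell line tags of the 12 PLATE-seq libraries count upwards from MDA-MB-437 and end at MDA-MB-448, and all were taken as MDA-MB-436. Each knockout group is a single clone, so what a clone carries besides the edit cannot be told apart from the loss of SMARCAL1. The labels call the replicates biological and name no separate cultures, so the p-values measure the spread between these libraries.

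In the Hippo pathway, the kinases MST and LATS phosphorylate the coactivator YAP1 and its paralogue TAZ, the product of WWTR1, and hold them in the cytoplasm. Unphosphorylated YAP1 and TAZ enter the nucleus, bind TEAD factors such as TEAD1 and activate genes that include CYR61, CTGF and ANKRD1. LATS2, AMOTL1, AMOTL2 and WWC2 restrain YAP1 and TAZ, and LATS2 and AMOTL2 are themselves known targets, which gives the pathway negative feedback. The pathway is known in breast cancer for its part in growth and in the response to cell density and stiffness.

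SMARCAL1 transcript counts did not show the edit. In TruSeq, SMARCAL1 was 14.7 ± 1.21 CPM (read counts scaled to library size; mean ± SD, n = 3) in the control and 14.0 ± 0.696 (n = 3) in clone 1, a log2 fold change of -0.07 (edgeR adjusted p = 0.791). SMARCAL1 had 0 and 3 counts in the PLATE-seq control libraries, 3 and 6 in clone 1, 8 and 3 in clone 2, and 16 and 44 in clone 3. The clones are therefore named by their labels alone. The siRNA control held 7 and 8 counts and the siRNA libraries 0 and 0, with an adjusted p of 0.573 in edgeR. With the siRNA group set to a floor of 3 counts, this is 4.84-fold lower. With the counting error of both groups, the upper 95% limit of the siRNA-to-control ratio was 0.288.

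Library totals were 10257584 to 19270648 counts in TruSeq and 807861 to 3068887 in PLATE-seq, so that 3 counts, the floor for a gene with no reads, were 0.165 to 0.278 CPM in TruSeq and 0.911 to 3.72 CPM in PLATE-seq. Markers in TruSeq summed to 1072 to 1690 CPM over the epithelial list (KRT8, KRT18, KRT19, EPCAM) and 1712 to 2126 over VIM, CD44 and AXL. The epithelial sum was almost all KRT8 and KRT18. EPCAM was only at 3.66 and 2.19 CPM as means of the control and clone 1, and KRT19 was near 0. ESR1 and PGR were at 0.512 CPM or less as group means, and ERBB2 was 41.2 and 50.6 CPM. The TruSeq libraries also fell on 2 sides by the number of features with a read: control replicates 1 and 2 and clone 1 replicate 1 had 36042 to 39068, the other 3 libraries 28621 to 30653. The sides cut across the groups, and values within each side are given beside the results.

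To show what the YAP1-TEAD complex could meet at these genes, the window from 250 bases before to 50 after the RefSeq start (GRCh38.p14) was searched on both strands for the TEAD motif GGAATG, the AP-1 motif TGANTCA and the CArG box. Windows were held for 8 of the 10 genes. A TEAD motif occurred in 14.0% of all 35116 windows of this length, an AP-1 motif in 7.71% and a CArG box in 1.29%. The 6 windows below are a choice from those held. Of their genes, WWC2, WWTR1 and AMOTL1 passed the TruSeq test given below, CTGF and AMOTL2 did not, and ANKRD1 was too low to test. CYR61, which passed it, and TEAD1 have no window. Capitals mark motif matches, and CATTCC is the TEAD motif on the other strand.
CTGF (chr6:131951323-131951622, minus strand): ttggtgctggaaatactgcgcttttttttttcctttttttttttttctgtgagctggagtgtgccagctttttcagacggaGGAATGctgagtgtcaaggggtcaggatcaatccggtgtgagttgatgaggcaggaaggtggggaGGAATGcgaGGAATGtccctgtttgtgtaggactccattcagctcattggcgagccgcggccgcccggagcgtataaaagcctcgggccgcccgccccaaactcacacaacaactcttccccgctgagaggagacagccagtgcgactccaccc
ANKRD1 (chr10:90921038-90921337, minus strand): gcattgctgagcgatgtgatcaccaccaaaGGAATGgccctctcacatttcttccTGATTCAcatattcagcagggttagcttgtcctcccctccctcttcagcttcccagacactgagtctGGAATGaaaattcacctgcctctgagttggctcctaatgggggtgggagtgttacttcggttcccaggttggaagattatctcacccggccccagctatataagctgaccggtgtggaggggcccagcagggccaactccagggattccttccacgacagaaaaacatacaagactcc
WWC2 (chr4:183099007-183099306, plus strand): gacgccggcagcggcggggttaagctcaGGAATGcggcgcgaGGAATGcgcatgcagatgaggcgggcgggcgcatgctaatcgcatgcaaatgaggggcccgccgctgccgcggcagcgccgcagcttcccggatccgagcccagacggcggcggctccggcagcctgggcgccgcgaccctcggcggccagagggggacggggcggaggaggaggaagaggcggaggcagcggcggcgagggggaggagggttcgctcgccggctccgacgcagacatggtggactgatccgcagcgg
AMOTL2 (chr3:134374398-134374697, minus strand): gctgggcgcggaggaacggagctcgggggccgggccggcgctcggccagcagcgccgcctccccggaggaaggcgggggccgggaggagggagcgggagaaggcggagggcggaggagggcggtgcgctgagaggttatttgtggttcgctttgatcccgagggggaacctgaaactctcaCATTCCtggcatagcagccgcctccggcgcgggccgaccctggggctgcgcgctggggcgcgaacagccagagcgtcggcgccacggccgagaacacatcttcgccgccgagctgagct
WWTR1 (chr3:149657976-149658275, minus strand): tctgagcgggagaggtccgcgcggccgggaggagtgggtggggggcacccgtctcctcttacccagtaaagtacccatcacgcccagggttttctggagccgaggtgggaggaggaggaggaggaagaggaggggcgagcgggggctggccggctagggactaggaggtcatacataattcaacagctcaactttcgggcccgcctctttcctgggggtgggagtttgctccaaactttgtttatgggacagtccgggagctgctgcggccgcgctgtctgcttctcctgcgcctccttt
AMOTL1 (chr11:94768106-94768405, plus strand): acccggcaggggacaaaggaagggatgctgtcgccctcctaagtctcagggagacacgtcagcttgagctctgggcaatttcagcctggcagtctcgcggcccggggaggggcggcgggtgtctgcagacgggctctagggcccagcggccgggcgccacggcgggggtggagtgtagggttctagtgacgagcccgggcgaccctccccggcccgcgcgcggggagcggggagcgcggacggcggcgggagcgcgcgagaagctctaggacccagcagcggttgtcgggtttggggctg

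Among the windows held, CTGF had the most TEAD motifs, with 3, beginning at positions -169, -104 and -95 with the start as 0, and ANKRD1 held 2, at -220 and -128, with an AP-1 motif between them at -195. WWC2 held 2 at -222 and -208, AMOTL2 held 1 at -69, YAP1 held 1 at -162 and LATS2 held 1 at 9. AMOTL1 and WWTR1 held none of the 3 motifs in these windows. AMOTL2 and WWTR1 each have a second window, with none of the 3 motifs. The windows printed are those at which more GENCODE 29 transcripts begin (10 against 2 for AMOTL2 and 6 against 2 for WWTR1). The same count was 0 for the windows of WWC2, YAP1 and LATS2, so their motif positions refer to the RefSeq start alone. A match is a string of letters and was not measured as a bound site here.

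In TruSeq, knockout clone 1 had more WWTR1, WWC2 and AMOTL1 and less CYR61 than the control, while YAP1, TEAD1, CTGF, LATS2 and AMOTL2 did not pass the test. Thus 4 of the 9 tested genes were called at an adjusted p below 0.05, 3 higher and 1 lower, beside 6.27% of all 17371 genes tested. The log2 fold changes of the 9 had a median of 0.21, beside -0.004 over all genes. In bulk RNA, fewer cells with a transcript and less of it per cell cannot be told apart.

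**Figure D1:**
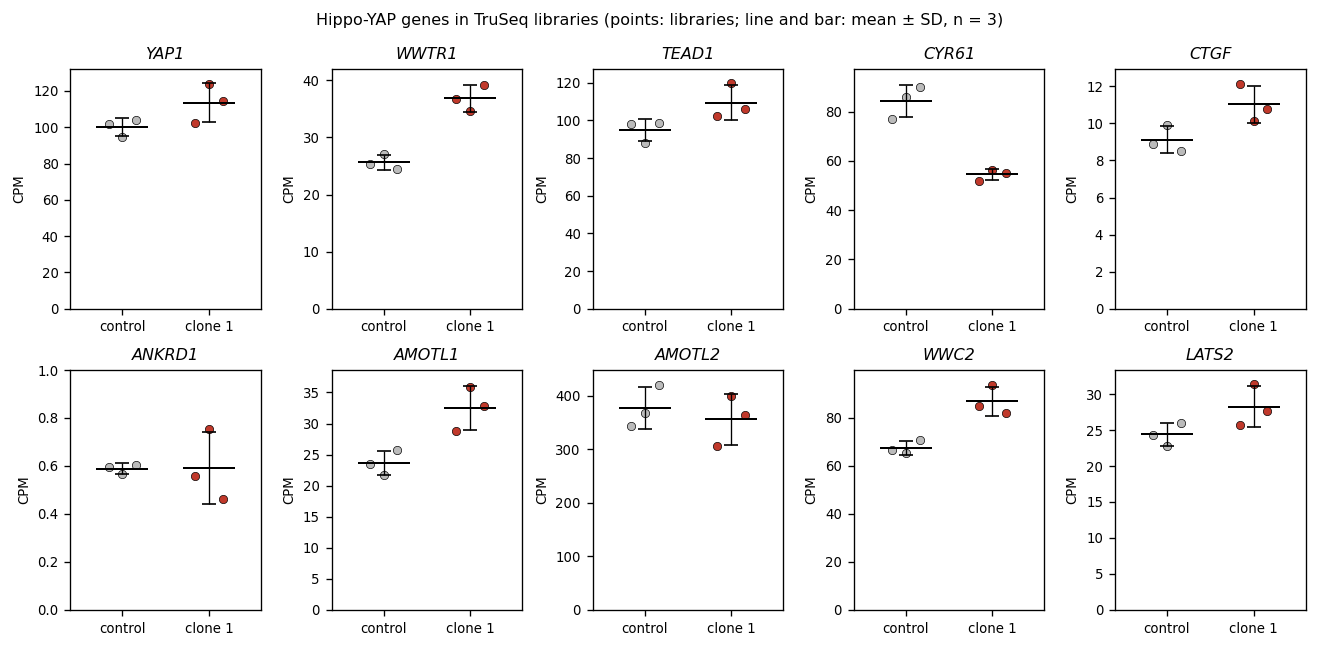
CPM of each gene in the 6 TruSeq libraries (points), with mean ± SD (n = 3 per group) on linear axes that start at 0. CYR61 lies between 51.9 and 56.3 in the clone 1 libraries and between 77.2 and 89.8 in the control, while WWTR1 lies between 34.6 and 39.3 in clone 1 and between 24.5 and 27.1 in the control.

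Among the coactivators, WWTR1 (chromosome 3, 149517235 to 149736714, minus strand, GRCh38), which encodes TAZ, was at 25.3, 27.1 and 24.5 CPM in the control and at 36.7, 34.6 and 39.3 in clone 1. The groups did not overlap, and WWTR1 rose by 0.53 on the log2 scale (SE 0.087, edgeR adjusted p = 0.0109). YAP1 (chromosome 11, 102110461 to 102233423, plus strand) was at 101.8, 94.4 and 104.0 CPM in the control and 102.4, 123.9 and 114.6 in clone 1, with 1 clone 1 library inside the control range. Its difference of 0.18 (SE 0.085) had an adjusted p of 0.266. Their DNA-binding partner TEAD1 (chromosome 11, 12674591 to 12944483, plus strand) was at 97.9, 88.2 and 98.6 CPM in the control and 102.3, 119.8 and 106.1 in clone 1. The TEAD1 groups did not overlap, but the difference of 0.21 (SE 0.083) did not pass the test (adjusted p = 0.207).

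Of the genes that restrain YAP1 and TAZ, WWC2 and AMOTL1 rose in clone 1. WWC2 (chromosome 4, 183099293 to 183320777, plus strand), a relative of the LATS activator KIBRA, was at 66.6, 65.3 and 70.6 CPM in the control and 85.1, 93.8 and 82.2 in clone 1. That is a log2 fold change of 0.37 (SE 0.076, adjusted p = 0.0271) with no overlap. AMOTL1 (chromosome 11, 94706431 to 94876753, plus strand), an angiomotin-family protein that binds YAP1, was at 23.5, 21.8 and 25.7 CPM in the control and 28.7, 35.9 and 32.8 in clone 1, a log2 fold change of 0.46 (SE 0.108, adjusted p = 0.0428), again with no overlap. AMOTL2 (chromosome 3, 134355874 to 134375479, minus strand), its close relative, was at 343.4, 367.0 and 420.7 CPM in the control and 305.3, 399.5 and 363.6 in clone 1. The AMOTL2 groups overlapped (log2 fold change -0.08, SE 0.113, adjusted p = 0.752). The kinase gene LATS2 (chromosome 13, 20973032 to 21061547, minus strand) was at 24.3, 22.8 and 26.0 CPM in the control and 25.8, 31.3 and 27.7 in clone 1, with 1 clone 1 library just below the highest control. Its difference of 0.21 (SE 0.101) had an adjusted p of 0.281.

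The 3 target genes did not move together. CYR61 (chromosome 1, 85580761 to 85583962, plus strand), a secreted matricellular protein also called CCN1, was at 77.2, 86.0 and 89.8 CPM in the control and 51.9, 56.3 and 55.2 in clone 1. It fell by 0.63 on the log2 scale (SE 0.080, adjusted p = 0.00387). CTGF (chromosome 6, 131948176 to 131951373, minus strand), the related protein CCN2, was at 8.88, 9.93 and 8.53 CPM in the control and 12.1, 10.2 and 10.8 in clone 1. Every CTGF value in clone 1 was above the control, opposite in direction to CYR61, yet the log2 fold change of 0.27 (SE 0.127) did not pass (adjusted p = 0.271). ANKRD1 (chromosome 10, 90912096 to 90921276, minus strand), a nuclear ankyrin-repeat cofactor, had 6 to 13 counts per library, 0.589 ± 0.0214 CPM (SD, n = 3) in the control and 0.591 ± 0.149 (SD, n = 3) in clone 1. Without an adjusted test, 5 of the 9 tested genes had every clone 1 library above every control (WWTR1, TEAD1, CTGF, AMOTL1 and WWC2), beside 13.6% of all genes, and CYR61 had every library below, beside 12.7%.

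The calls rested on small groups. With control replicate 2 left out none of the 9 was called (WWTR1 adjusted p = 0.0566, CYR61 0.0527, WWC2 0.175, AMOTL1 0.222, edgeR), without control replicate 1 or clone 1 replicate 2 WWTR1 and CYR61 were, and without clone 1 replicate 3 only CYR61 was. Within the 3 libraries with many features and the 3 with few, the log2 fold changes were 0.48 and 0.59 for WWTR1, -0.66 and -0.69 for CYR61, 0.36 and 0.32 for WWC2, and 0.34 and 0.42 for AMOTL1. With the side as a covariate TEAD1 (0.17, adjusted p = 0.0439) and AMOTL2 (-0.18, adjusted p = 0.0156) were called as well. The shares of all genes called in these other fits are not given here, so the added calls are not read as a result about the pathway.

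Per kilobase of merged exons, which allows levels of different genes to be set side by side, AMOTL2 was the highest of the 10 in TruSeq controls at 63.0 ± 6.62 CPM per kb (SD, n = 3). CYR61 followed at 34.3 ± 2.64, YAP1 at 15.9 ± 0.802, TEAD1 at 9.23 ± 0.569 and WWC2 at 6.77 ± 0.279. LATS2 (4.37 ± 0.287) and CTGF (3.90 ± 0.311) came next and overlapped in range. WWTR1 was at 3.05 ± 0.160, AMOTL1 at 2.36 ± 0.196 and ANKRD1 at 0.298 ± 0.0108. The order by mean was the same in clone 1, where CYR61 at 22.2 ± 0.932 lay closer to YAP1 at 18.1 ± 1.71, and where LATS2, CTGF and WWTR1 had neighbouring ranges that overlapped. In these cells YAP1 transcript thus exceeded WWTR1 transcript per kilobase in both groups.

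Reads of overlapping genes could enter these counts, since the strand setting was not given in the sources used here. WWC2 shared 25.9% of its exon bases with CLDN22 on the other strand, YAP1 10.0%, WWTR1 9.4%, CTGF 8.3% and AMOTL1 4.9% with antisense genes, and AMOTL2 3.1% with the pseudogene RPL39P5 on its own strand. Of these neighbours, CLDN22 (at WWC2), AP000942.2 (at YAP1), AL133346.1 (at CTGF) and AP002383.2 (at AMOTL1) had 0 to 4 counts summed over a TruSeq group. WWTR1-AS1 had 26 and 27 and RPL39P5 had 1353 and 1339 in the control and clone 1.

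PLATE-seq libraries were shallower, and none of the 8 tested genes was called in any of its contrasts. Apart from ANKRD1, which had too few counts to compare, the genes had a lower mean CPM in both PLATE-seq control groups than in the TruSeq control. In the control of the clones the means were 22.9 against 100.1 for YAP1, 5.93 against 84.3 for CYR61 and 4.21 against 24.4 for LATS2. Mitochondrially encoded transcripts were 24.65 to 34.32% of the counts in PLATE-seq libraries and 0.302 to 0.891% in TruSeq libraries. The assays were also scaled separately, so these levels are only set side by side. All 12 libraries shared 1 fit, and called genes made up 0% of 8595 tested in clone 1, 0.0349% in clone 2, 0.663% in clone 3 and 0.198% for the mean of the clones. At an unadjusted p below 0.05 edgeR had 704, 830, 1026 and 869 genes in these contrasts.

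**Figure D2:**
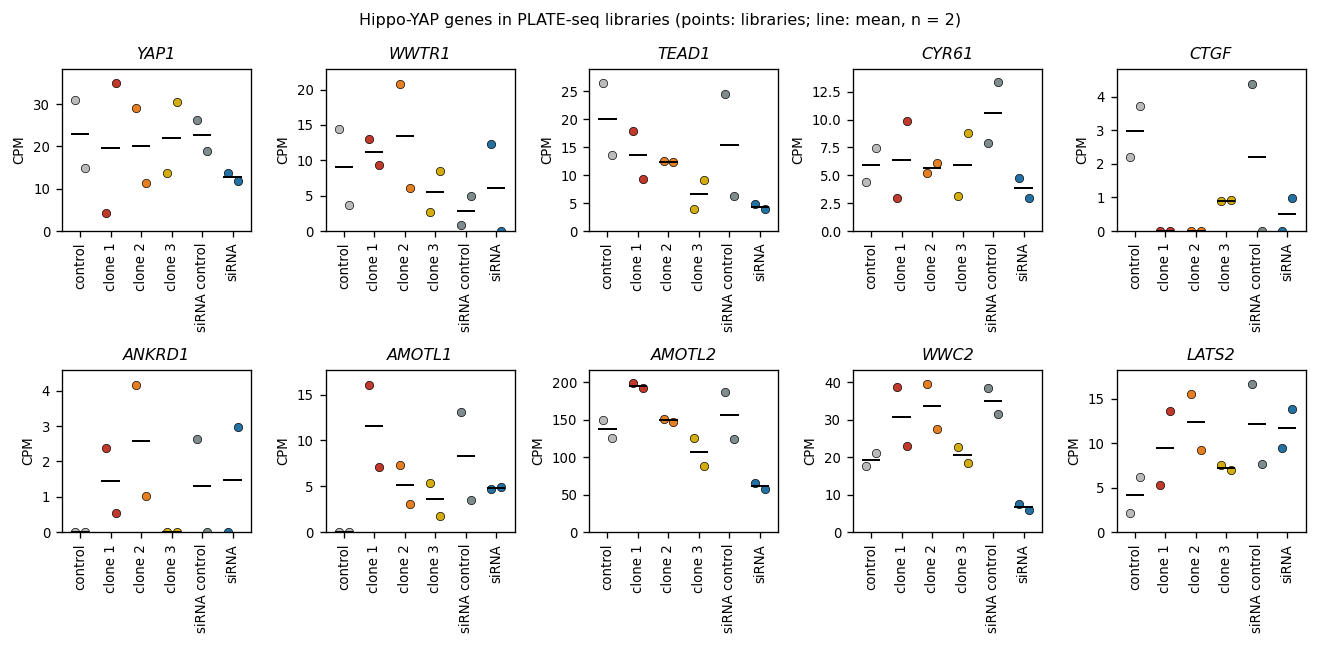
CPM of each gene in the 12 PLATE-seq libraries (points) with the group mean (line, n = 2), on linear axes that start at 0. The siRNA libraries of WWC2 (7.49 and 5.93) and of AMOTL2 (65.3 and 57.3) lie below the 10 other libraries, and AMOTL1 is at 0 in both control libraries.

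With siRNA against SMARCAL1, 7 of the 8 tested genes had log2 fold changes below 0 against the siRNA control. Their median log2 fold change was -1.07, beside -0.015 over all genes. Groups did not overlap for 5 of the 8, all lower (YAP1, TEAD1, CYR61, AMOTL2 and WWC2), beside 19.2% of all genes lower and 18.1% higher without overlap. None of the 8 passed the adjusted test, and nor did any of the 8595 genes in this contrast, a called share of 0% with 544 at an unadjusted p below 0.05.

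WWC2 was at 38.6 and 31.6 CPM in the siRNA control and at 7.49 and 5.93 with siRNA against SMARCAL1. These are 44, 45, 11 and 6 counts, a log2 fold change of -2.35 (SE 0.530, unadjusted p = 0.000169, edgeR adjusted p = 0.291). AMOTL2, the best covered of the 10, was at 186.7 and 124.9 CPM in the siRNA control and at 65.3 and 57.3 with siRNA, from 213, 178, 96 and 58 counts. Its log2 fold change was -1.34 (SE 0.307, unadjusted p = 0.00021, edgeR adjusted p = 0.291), and DESeq2 called it (-1.32, adjusted p = 0.027).

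TEAD1 was at 24.5 and 6.32 CPM in the siRNA control, 1 library far above the other, and at 4.76 and 3.95 with siRNA. The TEAD1 log2 fold change was -1.77 (SE 0.801, adjusted p = 0.741). CYR61 went from 7.89 and 13.3 CPM to 4.76 and 2.97 (-1.42, SE 1.01, adjusted p = 0.889), and YAP1 from 26.3 and 18.95 to 13.6 and 11.9 (-0.81, SE 0.716, adjusted p = 0.920). These rest on 3 to 30 counts per library.

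The remaining genes overlapped between the siRNA groups. LATS2 was at 16.7 and 7.72 CPM in the siRNA control and 9.53 and 13.8 with siRNA (-0.06, SE 0.772). AMOTL1 was at 13.2 and 3.51 CPM and then 4.76 and 4.94 (-0.75, SE 1.09). WWTR1 was at 0.877 and 4.91 CPM in the siRNA control and at 12.25 and 0 with siRNA, so that 1 library with 18 counts set its log2 fold change of 1.09 (SE 1.18). CTGF held 5 and 0 counts and then 0 and 1, and ANKRD1 3 and 0 and then 0 and 3.

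Other measures also differed between the siRNA groups. VIM, CD44 and AXL summed to 525 to 572 CPM in the siRNA control and 416 to 428 with siRNA. AXL, which is also on the list of other YAP and TAZ targets used below, changed most, with means of 149.2 and 78.8 CPM. VIM had means of 236.8 and 193.6, and CD44 overlapped at 162.6 and 149.7. PDGFRA, a fibroblast marker, had 51 and 11 counts in the siRNA control and 2 and 0 with siRNA. COL1A1, another fibroblast marker, went the other way, with means of 5.26 CPM in the siRNA control and 19.5 with siRNA and no overlap. The epithelial marker KRT8 was also higher without overlap, at 8.77 to 9.13 CPM and 13.8 to 32.0, while the 4 epithelial markers summed to 113.1 to 124.2 and 88.97 to 142.2. None of the 3 passed the test (edgeR adjusted p = 0.546, 0.824 and 0.689 for PDGFRA, COL1A1 and KRT8). The 6 fibroblast markers summed to 14.7 to 48.2 CPM in the siRNA control and 15.8 to 24.5 with siRNA, and COL1A2, PDGFRB, LUM and DCN were at 0 in both. The part of these in the result was not tested.

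None of the restraining genes passed the test in a knockout clone of PLATE-seq. WWC2 was at 17.7 and 21.1 CPM in the control, 38.6 and 22.9 in clone 1, 39.5 and 27.7 in clone 2, and 22.7 and 18.5 in clone 3. Clones 1 and 2 lay above the control, as did 20.8% and 19.5% of all genes in these contrasts, and clone 3 overlapped it, with log2 fold changes of 0.67 (SE 0.487), 0.79 (SE 0.497) and 0.09 (SE 0.486) and edgeR adjusted p of 0.776, 0.646 and 0.969. LATS2 was at 2.21 and 6.20 CPM in the control and at 5.35 and 13.7, 15.6 and 9.22, and 7.55 and 6.98 in clones 1, 2 and 3. That gave 1.19 (SE 0.880), 1.56 (SE 0.895) and 0.80 (SE 0.877), none past the test (adjusted p 0.779, 0.615 and 0.773). Set against the siRNA control instead, LATS2 was at -0.34, 0.04 and -0.73 and WWC2 at -0.19, -0.06 and -0.77.

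AMOTL2 was highest in clone 1 and lowest in clone 3, at 149.3 and 125.3 CPM in the control, 199.1 and 192.2 in clone 1, 150.8 and 147.5 in clone 2, and 125.8 and 88.7 in clone 3. Clone 1 lay above the control and clones 2 and 3 overlapped it (0.51, SE 0.296; 0.12, SE 0.301; -0.36, SE 0.297). AMOTL2 had the smallest p of the 8 for a difference among the clones (adjusted p = 0.314), where 0.71% of all genes were called and none of the 8.

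AMOTL1 had no counts in either control library. It had 27 and 13 counts in clone 1, 7 and 3 in clone 2 and 12 and 6 in clone 3. Against a floor of 3 counts over the control group, these were 6.49-fold, 2.94-fold and 1.85-fold higher. With the counting error of both groups the lower 95% limits of these ratios were 5.04, 1.98 and 1.36. These limits pool the libraries of a group and leave out the spread between replicates. In edgeR, which takes that spread in, the adjusted p-values were 0.302, 0.374 and 0.348 in clones 1, 2 and 3. The siRNA control, with 15 and 5 counts, was likewise 4.45-fold above that floor, with a lower 95% limit of 3.29 from counting error. The absence of AMOTL1 counts thus set the control apart from the siRNA control as well as from the clones. In TruSeq, the control held 270 to 467 AMOTL1 counts per library.

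TEAD1 had lower means in all 3 clones, as YAP1 had by a smaller margin. TEAD1 was at 26.5 and 13.6 CPM in the control, 17.8 and 9.28 in clone 1, 12.5 and 12.3 in clone 2, and 3.999 and 9.11 in clone 3. Clones 2 and 3 lay below the control without overlap, as did 18.8% and 19.3% of all genes, but the log2 fold changes of -0.57 (SE 0.712), -0.70 (SE 0.742) and -1.59 (SE 0.725) had edgeR adjusted p of 0.911, 0.802 and 0.384. YAP1 was at 31.0 and 14.9 CPM in the control and at 4.16 and 35.0, 29.1 and 11.3, and 13.8 and 30.4 in the clones, a spread within each group larger than any difference between them. WWTR1 was at 14.4 and 3.72 CPM in the control and at 13.1 and 9.28, 20.8 and 6.15, and 2.67 and 8.50 in clones 1, 2 and 3, all overlapping.

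CYR61 in the clones could not be set against its TruSeq fall with any precision. It was at 4.42 and 7.44 CPM in the PLATE-seq control and 2.97 and 9.83 in clone 1, a log2 fold change of 0.12 with an SE of 1.01, next to -0.63 in TruSeq. Clones 2 and 3 were at -0.05 (SE 1.06) and 0.04 (SE 0.984). CTGF had 2 and 3 counts in the control, 0 and 0 in clones 1 and 2, and 2 and 3 in clone 3. The upper 95% limits of the clone-to-control ratio from counting error were 0.531 in clone 1 and 0.963 in clone 2. These limits leave out the spread between replicates. In TruSeq, CTGF went the other way in clone 1, with a log2 fold change of 0.27 that did not pass (edgeR adjusted p = 0.271). ANKRD1 had 0 and 0 counts in the control and clone 3 and 4 and 1 in each of clones 1 and 2.

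**Figure D3:**
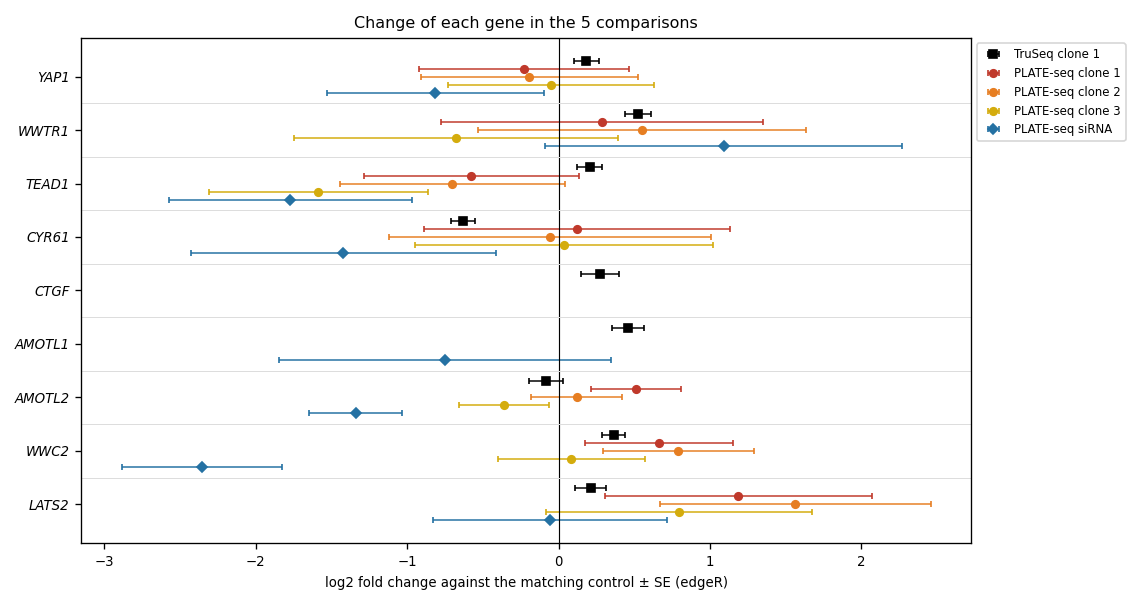
Log2 fold change against the matching control (horizontal axis, edgeR, ± SE) for each gene in TruSeq clone 1, PLATE-seq clones 1 to 3 and PLATE-seq siRNA. The TruSeq error bars are the shortest, and WWC2 at -2.35 and AMOTL2 at -1.34 in siRNA stand farthest from 0 in units of SE among the PLATE-seq values; CTGF (PLATE-seq), ANKRD1, and AMOTL1 in the clones are not drawn because their counts were too low or 0 in the control.

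The knockout and siRNA effects were compared directly in an interaction term. The mean effect over the clones minus the siRNA effect was 2.87 for WWC2 (SE 0.678, unadjusted p = 0.000287, edgeR adjusted p = 0.123), and DESeq2 put it just past the threshold (2.85, adjusted p = 0.0495). For AMOTL2 it was 1.43 (SE 0.396, edgeR adjusted p = 0.272). None of the 8 genes was called by edgeR, nor any of the 8595 (0%, with 667 at an unadjusted p below 0.05).

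The clones and the siRNA libraries each had a control of their own, and these controls also differed. The siRNA control stood above the control without overlap for WWC2 (0.85, SE 0.490), LATS2 (1.52, SE 0.885), CYR61 (0.85, SE 1.00) and AMOTL1 (at 0 in the control), beside 19.4% of all genes. None of these passed the test, in a contrast where 0.0116% of all genes were called. The siRNA libraries at 7.49 and 5.93 CPM of WWC2 were below the control at 17.7 and 21.1 as well.

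The rest of the pathway was taken from lists of known regulators and targets. Of 21 upstream regulators, 20 were tested in TruSeq and none was called, beside 6.27% of all genes called. Of these regulators, 10 were above 0 and 10 below. NF2, which encodes merlin, an activator of LATS at the membrane, was the regulator not tested, with 0 to 6 counts per library. The largest values were FAT4, an atypical cadherin, at 5.12, 4.92 and 4.62 CPM in the control and 2.32, 1.86 and 3.38 in clone 1 (-0.95, SE 0.240, adjusted p = 0.0534), and WWC3, a WWC-family relative of WWC2, at 53.8 and 72.0 CPM as group means (0.42, SE 0.114, adjusted p = 0.0688).

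Of 6 further TEAD and VGLL genes 5 were tested, and 1 was called, beside 6.27% of all genes. VGLL3, a cofactor that binds TEAD, fell from 10.3, 10.1 and 8.81 CPM to 5.38, 6.15 and 3.84 (-0.92, SE 0.186, adjusted p = 0.0238). TEAD2 was at 0.39 (adjusted p = 0.0996) and TEAD4 at -0.21 (adjusted p = 0.365).

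Of 21 other genes known as YAP and TAZ targets, all were tested in TruSeq, and 5 rose and 2 fell, beside 6.27% of all genes called. The list was drawn up with results of these libraries known. Its median log2 fold change was 0.22 beside -0.004 over all genes. THBS1, the matrix protein thrombospondin-1, rose from 56.0, 58.7 and 65.2 CPM to 104.9, 115.1 and 107.5 (0.86, SE 0.080, adjusted p = 0.000887). EDN1, which encodes endothelin-1, rose from 2.30, 3.07 and 2.92 CPM to 6.86, 6.67 and 8.34 (1.39, SE 0.183, adjusted p = 0.0043). MYOF, the membrane repair protein myoferlin, rose from 181.1, 182.6 and 188.9 CPM to 266.5, 285.9 and 283.4 (0.60, SE 0.061, adjusted p = 0.00137). The growth factor genes AREG (1.61, adjusted p = 0.0149) and TGFB2 (0.49, adjusted p = 0.0187) also rose. AREG was low, with means of 1.00 CPM in the control and 3.10 in clone 1.

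The targets that fell were GADD45A, a stress-induced cell cycle gene, from a mean of 130.6 to 88.7 CPM (-0.56, SE 0.066, adjusted p = 0.0027), and CCDC80, from 15.01 to 9.61 (-0.64, SE 0.152, adjusted p = 0.0441). Known targets thus included genes that rose and, with CYR61, genes that fell in the same clone. THBS1, EDN1, MYOF and GADD45A stayed past the threshold in each of the 13 alternatives, while CCDC80 lost its call in 6, AREG in 4, VGLL3 in 3 and TGFB2 in 2.

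Of 12 genes driven by SRF and its cofactor MRTF, which share some targets with YAP1, 9 were tested in TruSeq. Of these 1 was called, beside 6.27% of all genes. TPM1, which encodes a tropomyosin, rose from 126.0, 137.7 and 130.0 CPM to 168.1, 164.0 and 165.6 (0.34, SE 0.063, adjusted p = 0.0172), and the actin genes ACTB (0.21) and ACTG1 (-0.14) did not pass. TPM1 lost its call in 4 of the 13 alternatives.

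**Figure D4:**
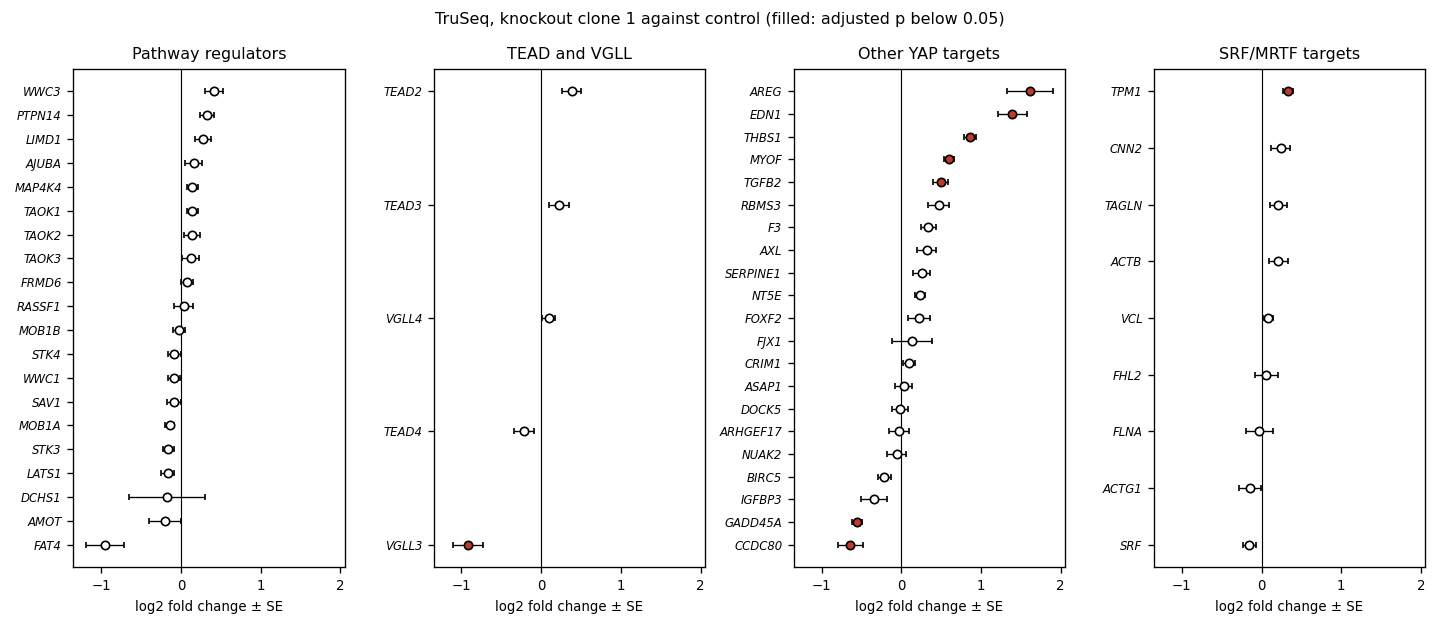
TruSeq log2 fold change of clone 1 against control (horizontal axis, edgeR, ± SE) for the tested genes of the 4 pathway lists, ordered by value within each list. Filled points have an adjusted p below 0.05: 0 of 20 regulators, 1 of 5 TEAD and VGLL genes, 7 of 21 other targets and 1 of 9 SRF/MRTF targets. Over all 17371 genes tested the called share was 6.27%.

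In PLATE-seq genes of the pathway lists were called only in clone 3 and among the clones, where 0.663% and 0.71% of all genes were called. FRMD6, a FERM protein upstream of the kinases, was at 99.5 and 116.6 CPM in the control and fell to 36.4 and 35.2 in clone 3 (-1.59, SE 0.349, edgeR adjusted p = 0.0344). PTPN14, a phosphatase that holds YAP1 in the cytoplasm, was at 75.2 and 73.2 CPM in the control and fell to 28.4 and 23.4 in clone 3 (-1.52, SE 0.364), at an adjusted p of 0.04996 on the edge of the threshold. In TruSeq clone 1 these were at 0.08 and 0.33 and did not pass. Leaving out any 1 library of the control or clone 3 ended both calls (adjusted p 0.0624 to 0.3412 for FRMD6 and 0.0686 to 0.4534 for PTPN14), and so did fitting only the groups compared (0.114 and 0.194) or comparing clone 3 with the siRNA control (0.163 and 0.354). With the replicate block PTPN14 had 0.0596.

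EDN1 set the clones apart. It was at 25.4 and 9.92 CPM in the control, 51.1 and 47.5 in clone 1, 39.5 and 43.0 in clone 2, and 0 and 2.12 in clone 3. The difference among the clones passed the test (edgeR adjusted p = 0.00146), as did the fall in clone 3 (-3.80, SE 0.783, adjusted p = 0.0267). With siRNA, EDN1 had 0 and 1 counts against 16 and 13 in the siRNA control, with an adjusted p of 0.292. GADD45A and TPM1 differed among the clones as well (adjusted p = 0.0432 and 0.0209), with TPM1 at 522.3 and 717.0 CPM in clone 1 and 274.2 and 229.9 in clone 3. GADD45A had means of 34.0 CPM in clone 1 and 28.4 in clone 3, below the control mean of 48.2. In clone 2 it was higher, with 1 library at 54.1 and 1 at 143.4. EDN1 still differed among the clones in all 11 alternatives (adjusted p up to 0.01005), but its fall in clone 3 lost the call in 4 of 9, without control replicate 1 (0.310) or clone 3 replicate 1 (0.0624), with only the groups compared (0.243) and against the siRNA control (0.116). TPM1 lost its call in 3 of 11, without clone 1 replicate 2 (0.194) or clone 3 replicate 2 (0.193) and with only the groups compared (0.105). GADD45A lost it in 6 of 11, without clone 1 replicate 1 (0.0748) or 2 (0.0646), clone 2 replicate 2 (0.697) or clone 3 replicate 2 (0.214), with the replicate block (0.0689) and with only the groups compared (0.109).

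No gene of the 4 lists was called with siRNA against SMARCAL1. The 16 other targets tested there had a median log2 fold change of -0.51, with 11 below 0 and 5 above, and the 15 regulators had -0.25. THBS1 was at 13.2 and 13.3 CPM in the siRNA control and at 4.76 and 0 with siRNA (-2.31, SE 1.16, adjusted p = 0.793). Its mean was 1.79 CPM in the control of the clones, so the siRNA mean of 2.38 was not below that control. The siRNA control stood above that control without overlap (2.85, SE 1.29, edgeR adjusted p = 0.606). MAP4K4, a kinase that acts beside MST upstream of LATS, was higher with siRNA. Its means were 67.5 CPM in the siRNA control and 166.4 with siRNA (1.30, SE 0.318, adjusted p = 0.292).

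Across all 18 libraries, with log2 CPM centred within each assay, the genes most like CYR61 among 8177 were PLA2G12A (Pearson r = 0.835), H2AFZ (0.789) and RPL34 (0.774). The points share libraries, groups and depth, so these values are a description. CTGF was tested in TruSeq alone and was given no such list.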

How the data were processed

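Gene-level RNA counts of 18 libraries in 8 groups were used. Per the submitters' processing notes, the authors deposited raw counts per gene symbol, made with STAR and HTSeq on hg38. Versions, annotation release and strand setting were not given in the sources used here. The members and the gene lists were chosen with earlier results of these data known.

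TruSeq (57120 symbols) and PLATE-seq (44359 entries, of which 92 spike-ins, at most 0.0534% of a library, were left out) were fitted separately, with the filter filterByExpr (minimum count 10), TMM scaling and edgeR's quasi-likelihood test on group (edgeR 4.0.16, R 4.3.3). Tests were two-sided. Adjusted p-values are Benjamini-Hochberg values over every gene in the fit, and a gene was called below 0.05. A single fit took in the 12 PLATE-seq libraries (6 residual degrees of freedom, biological coefficient of variation 0.33), and another the 6 TruSeq libraries (4 and 0.123). Standard errors are the log2 fold change over the square root of F. Fold changes against a group at 0 used a floor of 3 counts, which covers only the counting error of the group at 0. The script was tested on simulated data.

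Replicates of every group differed beyond counting noise, with chi-square per degree of freedom of 5.66 to 33.9. Coordinates are from GENCODE 29 and promoters from RefSeq on GRCh38.p14. CYR61 and TEAD1 have no promoter shown. Named genes were the 10 members, SMARCAL1, and list genes past the threshold. Genes of the lists that are named without passing it were chosen after their values were seen. Alternatives were DESeq2 1.42.0, RLE size factors, no filter on low counts, the replicate number as a block, each replicate left out, only the groups compared, the other control group for the clones, and the TruSeq side by detected features. Values within each side were added after seeing the data, as were the alternatives for the list genes.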

Additional observations from a re-analysis of the deposited data

Results flagged for a closer look

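For WWC2 and AMOTL2, both libraries of at least 1 PLATE-seq clone were above the control, while both siRNA libraries were below the siRNA control. Over all genes, 20.8%, 19.5% and 22.7% were above the control without overlap in clones 1, 2 and 3, and 19.2% were below with siRNA. The mean knockout effect minus the siRNA effect was 2.867 on the log2 scale for WWC2 and 1.427 for AMOTL2. The difference itself was tested and did not pass the edgeR threshold for either gene (adjusted p = 0.123 for WWC2 and 0.272 for AMOTL2). For WWC2, both libraries of clones 1 and 2 were above the control. For AMOTL2 this held for clone 1 only, and AMOTL2 was -0.36 in clone 3, 0.09 (SE 0.246) over the clone mean and -0.08 in TruSeq. No PLATE-seq knockout effect passed the test for either gene. The 2 effects rest on different control groups, and WWC2 was 0.85 higher in the siRNA control than in the control.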

How the results depend on the processing

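In TruSeq the count of called Hippo-YAP genes, 4 of 9, lay between 0 (without control replicate 2) and 4 with a replicate left out, and that of the 4 pathway lists, 9, between 4 (without control replicate 2) and 11 (without control replicate 3). Without control replicate 1 these were 2 and 5. The replicate block left 4 of the 9 called and raised the count of list genes to 21. The side by detected features as a covariate gave 26 list genes, and the 3 libraries with few features alone gave 18, with 1 library alone in an arm and its spread taken from the others. The 6.27% of all genes called in TruSeq belongs to the main fit alone. For these other fits the share of all genes called is not given here. A higher or lower count of called genes in them is therefore not read as a result about the pathway. Same-numbered libraries did not deviate together in every pair (r = 0.575, -0.273 and 0.376 in TruSeq, and -0.026 to 0.024 in PLATE-seq). The replicate numbers were therefore not taken to pair them. The spike-in counts of PLATE-seq did split by number, at 351 to 632 in each replicate 1 library and 3 to 17 in each replicate 2 library. The labels do not say what this split stands for, and the replicate block is the only alternative that takes the numbers into the fit. DESeq2 called 1 of the 8 genes in siRNA (AMOTL2) and 1 in the interaction (WWC2), where edgeR called 0. The share of all genes that DESeq2 called in these contrasts is not given here.

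When the clones were set against the siRNA libraries' own control, values turned to the other sign in clone 1 for CYR61 (-0.723), WWC2 (-0.188) and LATS2 (-0.338), in clone 2 for AMOTL2 (-0.06) and WWC2 (-0.06), and in clone 3 for WWTR1 (0.903), CYR61 (-0.811), WWC2 (-0.767) and LATS2 (-0.728). In clone 3 the sign also turned for CYR61 with the replicate block (-0.058) and for YAP1 with no filter on low counts (0.006). Leaving out 1 replicate turned the sign of 25 single-gene values, none of which was called. The ranges were -0.173 to 0.022 for AMOTL2 in TruSeq and, in clone 1 of PLATE-seq, -2.437 to 0.608 for YAP1, -0.352 to 1.574 for WWTR1 and -0.961 to 0.738 for CYR61. In clone 2 they were -1.02 to 0.433 for YAP1, -0.56 to 1.827 for WWTR1, -0.387 to 0.351 for CYR61 and -0.004 to 0.25 for AMOTL2. In clone 3 they were -0.734 to 0.591 for YAP1, -1.738 to 0.617 for WWTR1, -0.898 to 0.575 for CYR61 and -0.059 to 0.232 for WWC2. With siRNA they were -5.19 to 2.777 for WWTR1, -1.425 to 0.46 for AMOTL1 and -0.522 to 0.583 for LATS2. The cause was not tested. Of the single-gene values of the 10 genes and the called list genes, 510 of 607 alternatives kept direction and side of the threshold, 57 lost the call, 4 gained it and 36 changed sign. A further 22 for which DESeq2 gave no adjusted p were left out. PLATE-seq depth limits CTGF and ANKRD1, which had 0 to 5 counts per library.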

Other observations

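NF2, the gene of the Hippo activator merlin (chromosome 22, 29603556 to 29698598, plus strand, GRCh38), was almost without reads in all 18 libraries. It had 17 counts summed over the 6 TruSeq libraries, 0 to 6 in each and at most 0.512 CPM, and 4 counts summed over the 12 PLATE-seq libraries. The neighbouring gene on one side, NIPSNAP1, was at 51.3 to 63.7 CPM in TruSeq and THOC5 beyond it at 85.0 to 100.4. On the other side, CABP7 had 7 TruSeq counts in all, and ZMAT5, UQCR10 and ASCC2 were at 7.10 to 11.7, 44.2 to 59.5 and 32.3 to 38.5 CPM. Control and clone libraries were alike in this, with group means of 0.332 and 0.155 CPM for NF2 in TruSeq. NF2 and its neighbours within 200 kb were singled out after their values were seen.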
